A study of Mus musculus with 2 samples.

Results

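Of the 8155 cells kept from the aortic arch of Apoe-/- mice, 88 passed a monocyte gate with Plac8, Ly6c2 and Chil3 among its markers. Of these cells, called monocytes here, 55 were in the control (ND) library and 33 in the high fat diet (HFD) library. Most carried only part of the markers. They were selected on measured UMI counts (each UMI stands for 1 captured RNA molecule), so the levels of the selecting genes describe the gate and were not tested. A monocyte had at least 5 UMIs of Lyz2 and a UMI of at least 2 of the 5 markers Plac8, Ly6c2, Chil3, F10 and Adgre4. Its UMIs of C1qa, C1qb and C1qc, the complement genes of macrophages, had to be under 0.2% of the total, and those of S100a8 and S100a9, the calprotectin genes of neutrophils, under 3%. It had no UMI of Cd209a (dendritic cells), Cd79a (B cells), Cd3g (T cells) or Siglech (plasmacytoid dendritic cells), and not both of the endothelial genes Pecam1 and Cdh5.

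The study set out to describe how a high fat, high cholesterol diet alters the cells of the aortic arch. All mice were male, on the C57BL/6 strain, lacked Apoe and were 16 weeks old, and the HFD group had eaten that diet since weaning while the ND group had eaten chow. Cells from 2 aortas were pooled into 1 library per diet after perfusion with saline and enzymatic digestion. The Apoe deletion was carried by both groups, so no library came from mice with an intact Apoe gene. With 1 library per diet there was no replicate, no difference was tested, and differences between mice cannot be told apart from differences between diets. Values in parentheses after a share or a log2 ratio are exact 95% intervals, which cover counting error only.

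Monocytes are made in the bone marrow, circulate in the blood and enter tissues, where they can become macrophages or dendritic cells. In the mouse, classical monocytes carry high Ly6C and the chemokine receptor CCR2 and move into inflamed tissue, whereas nonclassical monocytes carry low Ly6C, depend on the transcription factor Nr4a1 and patrol along the vessel wall. In atherosclerosis, monocytes cross the arterial endothelium, and the macrophages formed from them take up lipoprotein cholesterol and become foam cells.

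The label was checked against genes that the gate did not use. Csf1r, the receptor for macrophage colony-stimulating factor, was detected in 46 of 55 ND and 26 of 33 HFD monocytes, and Ccr2 in 33 and 20. Ptprc, the common leukocyte antigen CD45, was detected in 52 and 27 cells, which left 3 ND and 6 HFD cells of the gate without it. Fcer1g and Tyrobp, adaptors of activating receptors in myeloid cells, were detected in every one of the 88 cells. Of the T cell list of 12 genes, the ND monocytes held 1 UMI and the HFD monocytes 29, and of the NK cell list of 10 genes 1 and 2. Most cells thus carried leukocyte and myeloid genes beyond the gate. Of the 9 cells without Ptprc, a haemoglobin-rich HFD cell and an HFD cell with endothelial RNA are described below.

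The 5 markers of the gate lie on separate chromosomes. In GENCODE M21 on GRCm38, Plac8 (ENSMUSG00000029322), a cysteine-rich protein gene of myeloid and lymphoid cells, spans chr5:100553725-100572245, and Chil3 (ENSMUSG00000040809), which encodes a chitinase-like lectin, spans chr3:106147554-106167564. F10 (ENSMUSG00000031444), coagulation factor X, spans chr8:13037308-13056676, and Adgre4 (ENSMUSG00000032915), an adhesion receptor of the EGF-TM7 family, spans chr17:55749984-55853662. Ly6c2 (ENSMUSG00000022584), 1 of 2 genes for the surface antigen Ly6C, spans chr15:75108158-75111970 on the minus strand, next to its copy Ly6c1 (ENSMUSG00000079018) at chr15:75044018-75048830. The last 300 bases of their longest coding transcripts shared 287 bases (95.7%), with 34 windows of 91 bases in common. Reads of this 3′ assay could thus in part match both genes. Ly6c1, which endothelial cells express, had 6 UMIs in ND and 16 in HFD monocytes against 191 and 111 of Ly6c2. These counts cannot show how many UMIs were given to the wrong copy or lost. Lyz2 and Lyz1, the lysozyme genes, shared 286 of 300 bases (95.3%) and had 2 UMIs of Lyz1 in ND and 0 in HFD monocytes. Chil3 and Chil4 shared 269 of 300 bases (89.7%) but no window of 91 bases, and Chil4 had 0 UMIs.

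The 250 bases before the start of Ly6c2, of its copy Ly6c1 and of Adgre4 are shown because Ly6c2 and Adgre4 split the monocytes below. Aligned end to end, the 2 Ly6c windows shared 171 of 250 bases (68.4%). They begin at different points of a shared sequence, and bases that overhang counted as unlike. This share can therefore not be set against that of the 3′ ends. The sequences are RefSeq's on GRCm38.p6, chr15:75111972-75112221 and chr15:75048838-75049087 on the minus strand and chr17:55749734-55749983 on the plus strand, each written 5′ to 3′ along its gene. Capitals mark GAGGAA, or TTCCTC where it lies on the other strand, the core bound by the myeloid factor PU.1.
Ly6c2: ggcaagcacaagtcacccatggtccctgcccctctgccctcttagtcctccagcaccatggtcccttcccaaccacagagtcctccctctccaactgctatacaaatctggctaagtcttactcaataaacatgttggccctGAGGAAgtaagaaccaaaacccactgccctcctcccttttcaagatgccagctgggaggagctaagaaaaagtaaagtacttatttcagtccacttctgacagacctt
Ly6c1: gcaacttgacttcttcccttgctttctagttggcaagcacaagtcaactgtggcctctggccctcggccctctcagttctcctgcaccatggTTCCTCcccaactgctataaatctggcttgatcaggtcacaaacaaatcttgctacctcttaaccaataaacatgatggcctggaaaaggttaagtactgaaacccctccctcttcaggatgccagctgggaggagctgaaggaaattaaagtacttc
Adgre4: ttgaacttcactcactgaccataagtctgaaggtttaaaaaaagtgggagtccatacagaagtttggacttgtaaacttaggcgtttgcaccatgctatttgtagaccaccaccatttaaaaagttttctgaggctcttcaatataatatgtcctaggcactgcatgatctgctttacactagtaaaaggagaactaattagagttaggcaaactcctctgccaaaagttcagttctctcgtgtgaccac
The window of Ly6c2 held 1 match, that of Ly6c1 held 1 and that of Adgre4 held 0. RefSeq has a second start for Ly6c2 and for Ly6c1, not shown, and those windows held 2 and 1 matches. On either strand, 23.3% of 32851 windows of this length held GAGGAA, so a match is common. The window of Adgre4 held 1 match of TTGCNNAA, a site of the C/EBP family found in 9.56% of windows, and none of the 3 held AAGGTCA, the site of Nr4a1, found in 4.08%. A match describes letters and no binding.

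Depth and quality differed between the libraries. The kept cells held 27137322 UMIs in ND and 17191279 in HFD, and the monocytes 239594 and 216704. The median was 3947 UMIs per ND monocyte (range 1216 to 11567) and 4806 per HFD monocyte (3231 to 61381). Mitochondrial genes took a median of 16.5% of UMIs in ND and 25.2% in HFD monocytes, and the limit of 30% stood close to many HFD cells. At a limit of 20%, 38 of 55 ND monocytes remained but only 4 of 33 HFD monocytes, and at 25% 48 and 16 remained. The part of cell quality in the differences between diets below was not tested. Scrublet's own threshold marked 0 ND and 1 HFD cell of all kept cells as doublets, too few to rely on, and no cell was removed for it. Among the 6% of cells of each library with the highest doublet scores were 0 of 55 ND and 2 of 33 HFD monocytes. The libraries had 39 barcodes in common, of which 1 was kept in both and 0 belonged to monocytes.

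**Figure D1:**
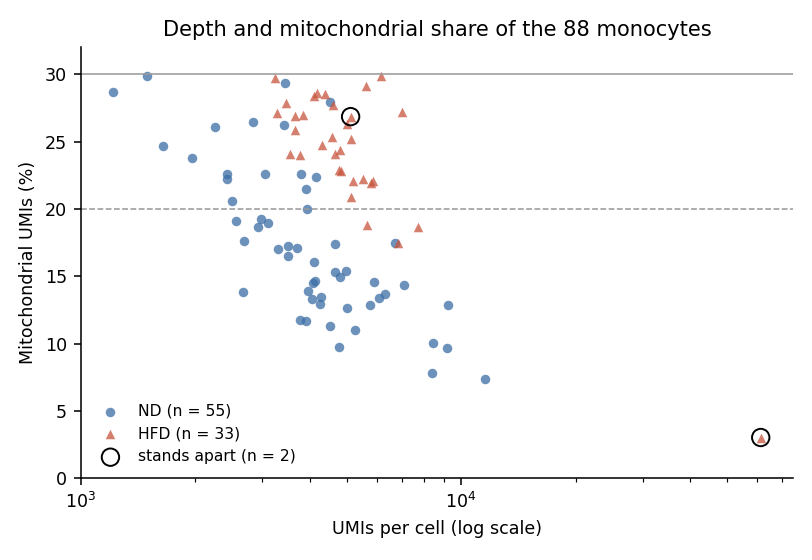
Each point is 1 monocyte, with its UMIs on a log scale against its percentage of mitochondrial UMIs, for 55 ND and 33 HFD cells. HFD cells gather near the limit of 30% (median 25.2% against 16.5% in ND), and the ringed cells are the 2 HFD cells that stand apart, 1 of them at 61381 UMIs and 3.03% mitochondrial UMIs.

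A pair of HFD cells stood apart and were kept by the gate all the same. The first had 61381 UMIs and 7691 detected genes, which made up 28.3% of all UMIs of HFD monocytes. It held 969 UMIs of Fn1 (fibronectin), 721 of Col1a2 and 405 of Col1a1 (type I collagen), 383 of Tagln and 372 of Acta2 (smooth muscle contractile proteins), but 1 of Ptprc and 4 of Plac8, and its doublet score was among the highest 6%. The second had 5120 UMIs, of which 44.9% came from haemoglobin and other erythroid genes, with 1395 of Hbb-bs. It held 5 UMIs of Lyz2, 2 of F10, 1 of Adgre4 and 0 of Ptprc. Values of the HFD monocytes are therefore given with all 33 cells and without this pair (31 cells), a choice made after the data were seen. A further 4 cells, 1 ND and 1 HFD cell of the Ly6c2 type described below, 1 ND cell of the Adgre4 type and 1 other HFD cell, had over 1% of their UMIs from a list of endothelial genes. They held 75.3% of the Fabp4 UMIs of the 88 cells, 65.2% of Cldn5, 59.1% of Aqp1 and 49.6% of Cd36.

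Monocytes were a small share of the aortic cells of either diet. They were 1.02% of kept ND cells (0.766 to 1.32) and 1.20% of kept HFD cells (0.831 to 1.69), and the intervals overlapped. Among kept cells with a UMI of Ptprc they were 52 of 1531 in ND, or 3.40% (2.55 to 4.43), and 27 of 778 in HFD, or 3.47% (2.30 to 5.01). Among the cells of 4 myeloid gates (monocytes, C1q macrophages, Cd209a cells and neutrophils) the share was 13.8% in ND (55 of 400, 10.5 to 17.5) and 7.11% in HFD (33 of 464, 4.95 to 9.84), intervals that did not overlap, with 242 macrophages in ND and 381 in HFD. Among kept cells with at least 5 UMIs of Lyz2 it was 9.77% (7.44 to 12.5) and 5.0% (3.47 to 6.95). The gate also depended on depth. After each cell was thinned to 1000 UMIs, 38 of 5353 ND cells (0.710%) and 13 of 2739 HFD cells (0.475%) passed it, and 60.0% of the ND and 36.4% of the HFD monocytes passed again. The 63 ND cells under 1000 UMIs, none a monocyte, were left out there.

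Plac8 was the most abundant of the 5 markers in both libraries. An ND monocyte held a median of 13 UMIs (range 0 to 47, above 0 in 50 of 55 cells), and an HFD monocyte 7 (0 to 46, 26 of 33 cells). Summed over cells and scaled to 1000000 UMIs (CPM), this was 3556 CPM in ND and 1832 in HFD, or 2616 in the 31 HFD cells. Macrophages, which should hold little of it, had a UMI of Plac8 in 3.72% of ND and 16.0% of HFD cells, at median depths of 4433.5 and 6223 UMIs. B cells expressed it as well, in 77.8% of ND and 48.0% of HFD cells. A UMI of Plac8 alone was therefore no sign of a monocyte, and the gate asked for a second marker.

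Ly6c2 was uneven between cells. It had a median of 1 UMI in either library, with a maximum of 24 in ND and 26 in HFD, and was at 0 in 27 of 55 ND and 14 of 33 HFD monocytes. Its level was 797 CPM in ND and 512 in HFD (739 in the 31 cells), against 0 and 21.1 CPM in macrophages, where 0% and 6.04% of cells had a UMI. T cells, part of which express Ly6C, had a UMI in 19.2% and 19.4% of cells. Chil3 was detected in 29 ND and 16 HFD monocytes, at most 13 and 9 UMIs per cell, at 401 and 162 CPM (233 in the 31 cells). Chil3 was close to absent elsewhere outside the neutrophils, in 0.413% of ND and 2.10% of HFD macrophages and in no T or B cell.

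The shares of cells with F10 and with Adgre4 were in opposite order between the libraries. F10 was detected in 26 of 55 ND monocytes, with 19 of its 67 UMIs in a single cell, and in 25 of 33 HFD monocytes at no more than 5 UMIs each. The summed level of F10 was 280 CPM in ND and 245 in HFD, and the share of cells with a UMI was 47.3% and 75.8%. The 2 HFD cells that stood apart held 1 and 2 UMIs of F10, but the first held 28.3% of all UMIs of HFD monocytes. Without this pair the summed level of F10 was slightly higher in HFD than in ND, by a margin within counting error. Adgre4 was detected in 33 of 55 ND monocytes, or 60.0%, and in 6 of 33 HFD monocytes, or 18.2%. Its level was 238 CPM in ND and 55.4 in HFD, and it stayed lower in HFD without that pair. The same order was seen outside the gate, where Adgre4 was at 36.8 CPM in ND and 7.63 in HFD macrophages and at 53.6 and 11.2 in Cd209a cells, and no T or B cell of either library had a UMI of it. Adgre4 is 1 of the gate markers, so its share among monocytes is not independent of the gate.

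**Figure D2:**
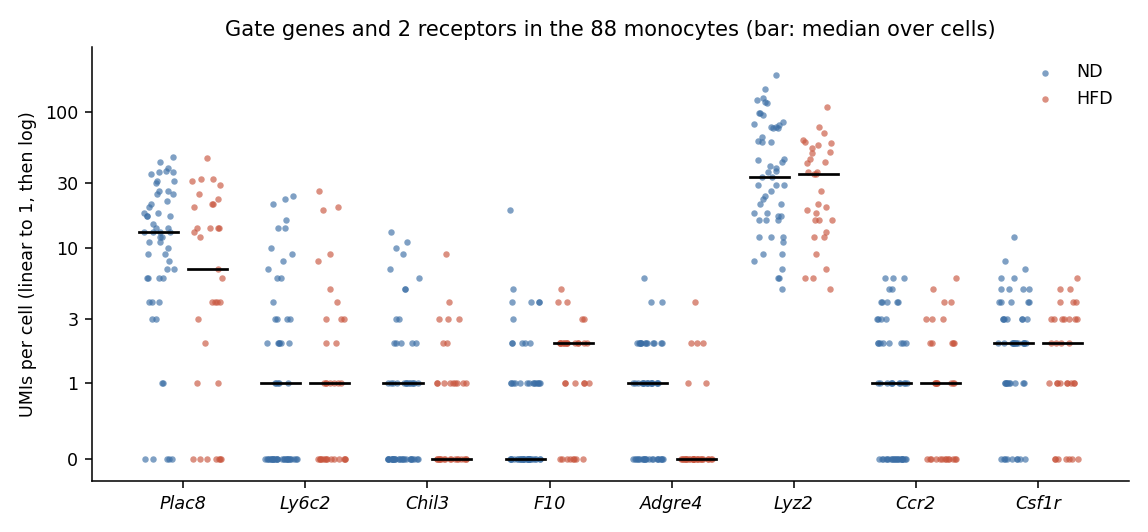
Each point is the UMI count of a gene in 1 of 55 ND or 33 HFD monocytes, on an axis that is linear to 1 and logarithmic above, and the bar is the median over cells. Plac8 has medians of 13 (ND) and 7 (HFD), and Adgre4 lies above 0 in 33 ND cells but in 6 HFD cells.

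Most monocytes carried only part of the marker set. In ND, 23 cells had 2 of the 5 markers, 11 had 3, 18 had 4 and 3 had all 5, and in HFD the numbers were 17, 8, 6 and 2. The commonest sets in ND were Plac8 with Adgre4 (11 cells) and Plac8 with Ly6c2, Chil3 and F10 (10 cells). In HFD they were Plac8 with F10 (5 cells) and again Plac8 with Ly6c2, Chil3 and F10 (5 cells). At the edge of the gate, the cells with exactly 2 markers had 2045 CPM of Plac8 in ND and 445 in HFD, or 796 in the 15 HFD cells left without the pair that stood apart. Cells that met every other condition but had 1 marker numbered 31 in ND and 32 in HFD and had 420 and 295 CPM. The cells with 5 or 6 UMIs of Lyz2 numbered 3 in each library and those with 3 or 4 numbered 1. Between 0.1% and 0.2% of C1q there were 0 ND and 1 HFD cell, and from 0.2% to 0.3% there were 0 and 3. In all, 4 ND and 23 HFD cells met every other condition but had at least 0.2% of C1q. The C1q limit thus took out more HFD than ND cells, and these counted as macrophages in the shares above. No cell lay near the limit on S100a8 and S100a9.

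The monocytes were split by their counts of Ly6c2 and Adgre4. Cells with at least 2 UMIs of Ly6c2 and none of Adgre4 were called the Ly6c2 type, cells with a UMI of Adgre4 and at most 1 of Ly6c2 the Adgre4 type, and the rest neither type. In ND, 14 cells (25.5%, 14.7 to 39.0) were of the Ly6c2 type, 24 (43.6%, 30.3 to 57.7) of the Adgre4 type and 17 (30.9%) of neither. In HFD the numbers were 12 (36.4%, 20.4 to 54.9), 6 (18.2%, 6.98 to 35.5) and 15 (45.5%). Both genes were above 0 in 12 ND and 2 HFD cells and both at 0 in 6 and 10 cells. At a median of 1 UMI or fewer, a gene at 0 in a cell may have been missed, so the types are ranges of a count and not separate populations.

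Genes outside the gate followed the split in ND. From each list of monocyte genes the 5 markers were removed, which left 17 genes of the classical and 19 of the nonclassical list. The classical sum exceeded the nonclassical in 13 of 14 ND cells of the Ly6c2 type and in 3 of 24 ND cells of the Adgre4 type, and in 12 of 17 cells of neither type. In HFD it did so in 10 of 12, 3 of 6 and 10 of 15 cells. The medians were 9596 CPM (classical) and 2257 CPM (nonclassical) in the ND Ly6c2 type against 2811 and 9781 CPM in the ND Adgre4 type. In HFD they were 9209 and 2737 CPM in the Ly6c2 type but 3229 and 3543 CPM in the 6 cells of the Adgre4 type, 1 of which was the haemoglobin-rich cell. In the other 5 cells of that type the medians were 4150 (classical) and 2594 (nonclassical) CPM, and the classical sum was the higher in 3 of 5. The order of the lists thus turned between the types in ND, and in the HFD Adgre4 type it depended on a single cell.

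**Figure D3:**
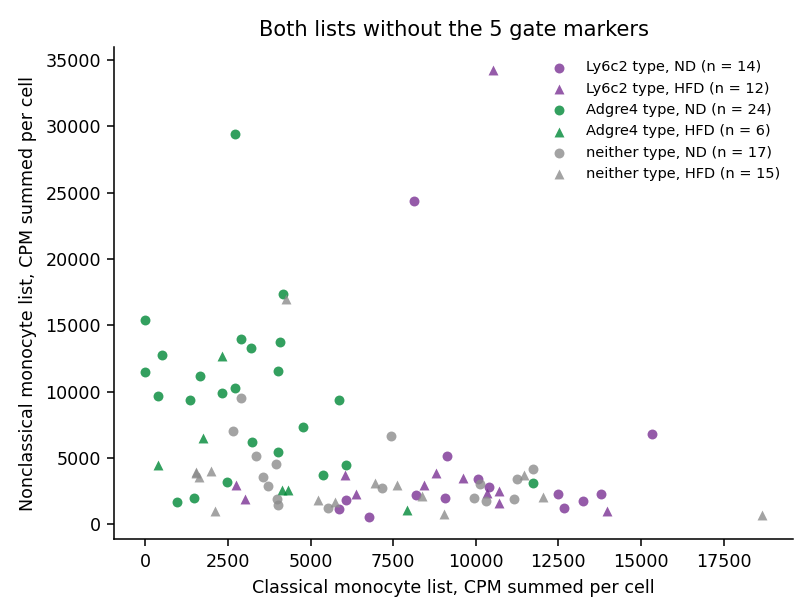
Each point is 1 monocyte, with the CPM summed over the classical list on the horizontal axis and over the nonclassical list on the vertical axis, both without the 5 gate markers, coloured by type and shaped by library. ND cells of the Ly6c2 type lie low and to the right (medians 9596 and 2257 CPM), ND cells of the Adgre4 type high and to the left (2811 and 9781 CPM).

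Over both libraries, the sums of 26 cells of the Ly6c2 type (127451 UMIs) and 30 of the Adgre4 type (128778 UMIs) were compared gene by gene. Of 1080 genes with at least 30 UMIs, 67 (6.2%) were at least 2-fold higher in the Adgre4 type and 78 (7.22%) at least 2-fold lower, and within the ND library alone, 46 of 739 (6.22%) and 53 (7.17%). Of 12 nonclassical genes that the split did not use, 8 were at least 2-fold higher and 1 lower in the Adgre4 type, with a median log2 ratio of 1.54 against -0.01 over all genes, and within ND 6 of 10 were higher and 1 lower (median 1.57). Of 10 classical genes, 9 were at least 2-fold lower (median -1.29), and within ND 9 of 9. The single nonclassical gene that was lower, Fabp4, was at 2715 CPM in the Ly6c2 type and 815 in the Adgre4 type. In the Adgre4 type against Ly6c2 type without the cells rich in endothelial RNA, no gene of that list was lower and 10 of 13 were higher. Adgre4 is 1 of these 10, and the split itself set its direction.

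Ace, angiotensin-converting enzyme and a marker of nonclassical monocytes, was at 47.1 CPM in the Ly6c2 type and 536 in the Adgre4 type, a log2 ratio of 3.51 (2.31 to 5.00). Within ND the levels of Ace were 14.1 and 637 CPM, within HFD 88.8 and 222 CPM. Ear2, an eosinophil-type ribonuclease, was at 62.8 and 443 CPM (log2 ratio 2.82) and was higher in the Adgre4 type of either library. Dusp5 and Dusp16, phosphatases that act on MAP kinases, were at 47.1 and 357 CPM and at 31.4 and 217 CPM. Bcl2a1d, a gene of the anti-apoptotic A1 family, was at 39.2 and 256 CPM, and Id2, an inhibitor of helix-loop-helix factors, at 165 and 652 CPM. Itgal, the alpha chain of the integrin LFA-1 with which nonclassical monocytes hold on to endothelium, was at 306 and 947 CPM (log2 ratio 1.63, 1.10 to 2.19). Nr4a1, the nuclear receptor that nonclassical monocytes need, was at 534 and 1126 CPM, a log2 ratio of 1.08 (0.65 to 1.52). Treml4, Spn (CD43), Cd300e and Eno3 were under the limit of 30 UMIs, with 2, 5, 0 and 0 UMIs in the Ly6c2 type and 22, 22, 14 and 18 in the Adgre4 type. Haemoglobin genes also stood among the highest 10, with Hbb-bs at 157 and 11035 CPM, of which 1395 of 1421 UMIs lay in the haemoglobin-rich cell.

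Fn1, Thbs1 and S100 genes led the side of the Ly6c2 type. Of 11 adhesion molecules, 2 (Itgal and Itgb2) were at least 2-fold higher in the Adgre4 type and 2 lower, with a median log2 ratio of 0.48. Fn1 was at 792 CPM in the Ly6c2 type and 77.7 in the Adgre4 type, a log2 ratio of -3.35 (-4.45 to -2.41). Thbs1, thrombospondin 1, was at 1459 and 217 CPM, and was lower in the Adgre4 type of both libraries (log2 ratio -2.51 in ND and -4.45 in HFD). S100a10, the partner of annexin A2 in plasmin formation, was at 659 and 62.1 CPM (log2 ratio -3.41, -4.67 to -2.36), and S100a6, a calcium-binding protein, at 2393 and 971 CPM. In all, 4 of 5 S100 genes and 3 of 5 coagulation genes were at least 2-fold lower in the Adgre4 type, the latter S100a10, Thbs1 and F13a1, the factor XIII subunit. F13a1 was at 345 and 85.4 CPM, a gap that lay in ND (422 and 20.6 CPM) and not in HFD (249 and 286 CPM). Lgals1 (galectin 1) was at 549 and 77.7 CPM, Slfn5, a schlafen family gene, at 353 and 54.4, Ahnak, a large scaffold protein, at 777 and 194, and Vim (vimentin) at 1962 and 745. Ccr2, the receptor for Ccl2, was at 486 and 233 CPM, a log2 ratio of -1.06 (-1.74 to -0.41). Vcan, versican, had 12 and 1 UMIs, under the limit. Aqp1, Cldn5 and Timp3 were also among the 10 lowest, at log2 ratios of -3.44, -3.38 and -3.52, and 59.1%, 65.2% and 14.5% of their UMIs in the 88 monocytes lay in the 4 cells with endothelial RNA.

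Inflammatory genes differed in both directions. Of 16 tested, Cd83, Bcl2a1b and Tnf were at least 2-fold higher in the Adgre4 type and Il6 lower (median log2 ratio -0.01), and within ND 1 of 15 was higher and 1 lower. Il6 was at 486 CPM in the Ly6c2 type and 116 in the Adgre4 type (log2 ratio -2.06) and Cd14, the co-receptor for endotoxin and a gene of the pattern recognition list, at 1240 and 489 CPM, with little gap in HFD (586 and 476). Il1b, by contrast, was at 1679 and 1211 CPM, with the order in ND (1897 and 1069) opposite to that in HFD (1403 and 1651). Of the 6 MHC class II genes tested none was at least 2-fold apart (median 0.58), and the cells of each type varied widely. The class II sum per cell ran from 0 to 90247 CPM in ND and from 0 to 61370 CPM in HFD, and 23 of 55 ND and 14 of 33 HFD cells had at least 5000 CPM. These were 5 of 14, 9 of 24 and 9 of 17 cells of the Ly6c2, Adgre4 and neither types in ND and 3 of 12, 3 of 6 and 8 of 15 in HFD. High class II was thus present in every type and was least common in the Ly6c2 type of HFD. Of the other markers of the gate, Plac8 was at 4002 and 2726 CPM, Chil3 at 416 and 272 and F10 at 384 and 357.

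Monocytes were set against the macrophages of the C1q gate, library by library. Of 5265 genes with at least 30 UMIs in each library's pair of sums, 114 (2.17%) were at least 2-fold higher and 324 (6.15%) at least 2-fold lower in monocytes of both libraries. Hp, haptoglobin, was at 497 CPM in ND monocytes against 3.20 in ND macrophages and at 189 against 7.26 in HFD. Slpi, a leukocyte protease inhibitor, was at 200.3 against 3.20 CPM in ND and 106 against 2.91 in HFD. Thbs1 was at 826 against 36.0 CPM in ND and 1550 against 153 in HFD, or 1165 against 153 with the 31 HFD cells. Itgal, Ace and Ms4a4c, a membrane-spanning protein of monocytes, were higher by log2 ratios of 4.42, 4.83 and 4.77 in ND and 3.67, 3.52 and 2.50 in HFD. Among inflammatory genes, Il1b was at 1582 against 201 CPM in ND and 1167 against 225 in HFD, and Il6 at 296 against 34.4 and 111 against 13.8, and these with Ptgs2 were 3 of 19 that were higher. S100a4, S100a6 and S100a11 were 3 of 6 S100 genes that were higher. Lower in monocytes were 17 of 18 macrophage markers, some of which the gate used, 4 of 7 MHC class II genes, 6 of 21 cathepsin and lysosome genes and 7 of 11 foam macrophage genes. F13a1 was also lower in monocytes of both libraries, although it stands on the classical list.

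Against the Cd209a cells, which resemble dendritic cells derived from monocytes, 76 of 1652 genes (4.6%) were at least 2-fold higher and 62 (3.75%) at least 2-fold lower in monocytes of both libraries. All 8 MHC class II genes tested were lower, with Cd74, the invariant chain, at 6966 against 24210.4 CPM in ND and 4227 against 22252 in HFD. The ND Cd209a cells also held 21157 CPM of a list of 10 B cell genes, against 171 in ND monocytes and 108 in HFD Cd209a cells, and the part of B cell RNA in their class II level was not tested. Of 12 classical genes, 8 were higher, among them F13a1, Hp, Mgst1 and Thbs1, besides 3 genes of the gate. Thbs1 had 198 UMIs in ND and 336 in HFD monocytes against 3 and 2 in Cd209a cells. Cebpb, a C/EBP factor, was at 2358 against 360 CPM in ND and 1421 against 272 in HFD. Clec4e (Mincle), a lectin that senses dead cells and mycobacterial lipid, was at 505 against 24.3 and 272 against 18.6 CPM. With 70 neutrophils in ND and 3 in HFD, that comparison was made in ND only, where Cd74 was at 6966 CPM in monocytes against 68.9 in neutrophils, Ctss (cathepsin S) at 1269 against 18.8 and Crip1, a small zinc-binding protein, at 3189 against 100.3.

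Between diets, the summed monocytes differed most in genes that 1 or 2 HFD cells carried. Of 1997 genes with at least 30 UMIs, 195 (9.76%) were at least 2-fold higher in HFD and 218 (10.9%) at least 2-fold lower. Without the pair of cells that stood apart, 57 of 1653 (3.45%) were higher and 143 (8.65%) lower. The median log2 ratio of all genes was -0.14 with 33 cells and -0.20 with 31, and scaling by the median of ratios moved it to -0.04, so ratios as small as these shifts cannot be read as differences. Among the 10 highest genes, Eln (elastin), Mgp, Bgn, Igfbp7 and Sparc, genes of the vessel wall's matrix, had 285, 501, 239, 207 and 545 UMIs in HFD, of which 275, 475, 222, 197 and 516 lay in the deep cell. The haemoglobin genes Hbb-bs, Hbb-bt, Hba-a1 and Hba-a2 had 1457, 301, 354 and 301 UMIs in HFD, of which 1395, 288, 329 and 280 lay in the haemoglobin-rich cell. Without these cells, Hbb-bs was still at a log2 ratio of 2.07 (1.34 to 2.85), and it was detected in 25 of 33 HFD and 18 of 55 ND monocytes. Hbb-bs was also detected in 84.0% of HFD and 28.9% of ND macrophages and in 90.3% of HFD and 27.1% of ND T cells, at median depths of 5428 and 2668 UMIs. In the other direction Scgb1a1, a secretory gene of airway club cells, had 56 UMIs in 28 ND monocytes and 0 in HFD, a log2 ratio of at most -4.08 taking 3 UMIs for the whole HFD group where none was counted. It was detected in 47.9% of ND macrophages and 41.5% of ND T cells and in no HFD T cell. These genes were found in cells that should not express them.

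Many genes of nonclassical monocytes were lower in HFD. Of 14 such genes tested besides Adgre4, 8 were at least 2-fold lower and 0 higher, with a median log2 ratio of -1.13, and with 31 cells 5 of 14 were lower (median -0.88). Among cells with at least 3 gate markers, 2 of 11, Adgre4 included, were lower (median -0.70). Pglyrp1, a bactericidal peptidoglycan recognition protein, had 81 UMIs in 29 ND monocytes and 7 in 4 HFD monocytes, or 338 and 32.3 CPM, a log2 ratio of -3.39 (-4.75 to -2.28) and of -2.86 (-4.22 to -1.75) with 31 cells. Ace was at 342 and 83.1 CPM, a log2 ratio of -2.04 (-2.87 to -1.29), and Itgal at 634 and 212 CPM, a log2 ratio of -1.58 (-2.09 to -1.10). The ratios with 31 cells were -1.51 (-2.34 to -0.77) for Ace and -1.18 (-1.71 to -0.68) for Itgal. Treml4, a receptor that binds dying cells, was at 104 and 23.1 CPM, Ear2 at 221 and 92.3 and Dusp16 at 121 and 41.5. Nr4a1 was at 914 and 415 CPM and Gngt2, a G protein subunit, at 868 and 397, with log2 ratios of -1.14 and -1.13 that became -0.89 and -0.88 with 31 cells. Cx3cr1, the fractalkine receptor of patrolling monocytes, was at 100.2 and 69.2 CPM with an interval of its log2 ratio from -1.57 to 0.46. Every member of this list that was at least 2-fold apart was thus lower in HFD, and Cx3cr1 was not distinguishable. ND had 24 of 55 cells of the Adgre4 type and HFD 6 of 33, and fewer such cells cannot be told apart here from less RNA of these genes per cell.

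Classical monocyte genes moved less. Of 11 tested besides the gate genes, 1 was at least 2-fold higher in HFD and 2 lower (median -0.59), and with 31 cells 0 were higher and 2 lower (median -0.14). The single higher gene was Fn1, at 547 CPM in ND and 4619 in HFD, of whose 1001 HFD UMIs 969 lay in the deep cell, and without it the level was 213 CPM and the log2 ratio -1.36 (-1.97 to -0.79). Hp was at 497 and 189 CPM (log2 ratio -1.39, and -0.86 with 31 cells). Ccr2 was at 363 and 212 CPM, a log2 ratio of -0.77 (-1.32 to -0.24) that was -0.25 (-0.79 to 0.29) with 31 cells. F13a1, Mgst1 and Ms4a4c were at log2 ratios of -0.14, -0.02 and -0.06 with 31 cells, within counting error of 0. Thbs1 was at 826 and 1550 CPM, and at 1165 in the 31 cells, a log2 ratio of 0.50 (0.19 to 0.80). The median of this list was below 0 with and without the pair of cells that stood apart, and nearer to 0 without them.

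**Figure D4:**
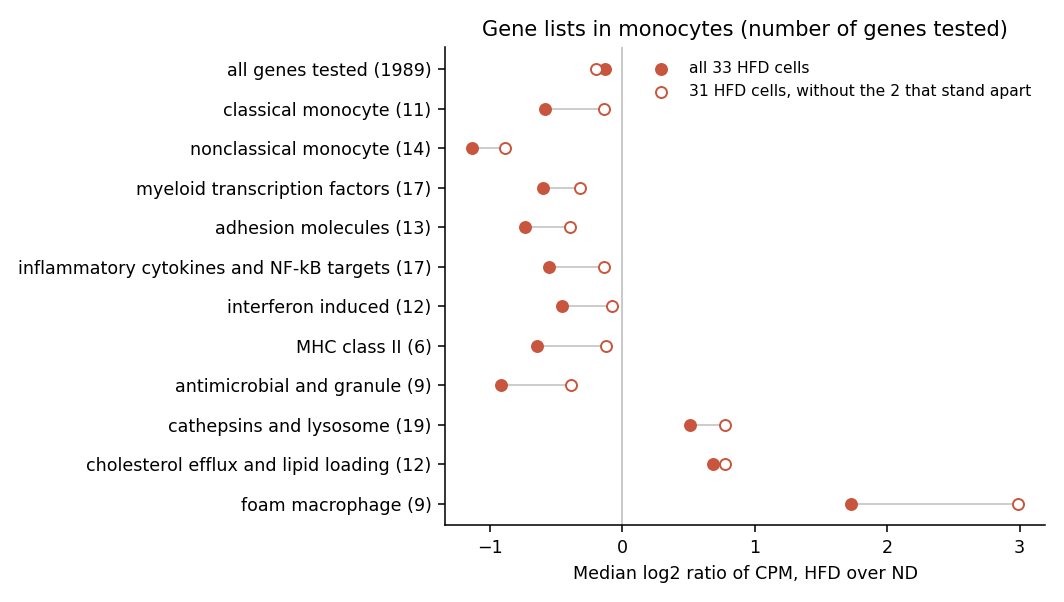
Each row is a gene list with the number of genes tested, and the points are the median log2 ratio of CPM, HFD over ND, with all 33 HFD cells (filled) and with 31 (open). The nonclassical list lies at -1.13 and -0.88, the cathepsin and lysosome list at 0.51 and 0.77, against -0.14 and -0.20 over all genes.

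Other genes led the lower side. Dusp2, a phosphatase of activated immune cells, was at 906 CPM in ND and 189 in HFD, a log2 ratio of -2.26 (-2.78 to -1.77) and of -1.88 (-2.42 to -1.37) with 31 cells. Its level in macrophages was 139 and 125 CPM and in Cd209a cells 219 and 276 CPM. Krt80, a keratin gene, had 36 UMIs in 23 ND monocytes and 1 in HFD, while Cd209a cells had it in 30.3% of ND and 55.3% of HFD cells. Pmaip1 (Noxa), a promoter of apoptosis, was at 280 and 64.6 CPM, Ccdc12, a coiled-coil protein gene, had 47 and 8 UMIs, Ifitm1, an interferon-induced membrane protein, 40 and 7, and BC028528 29 and 4. Hmgb2, a chromatin protein of cycling cells, was at 726 and 226 CPM, with 42 of its 174 ND UMIs in 1 cell. The low HFD values of Dusp2 and Krt80 were thus not seen in the other myeloid cells named here.

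Some genes of lysosomes and lipid handling were higher in HFD. Of 19 cathepsin and lysosome genes, 6 were at least 2-fold higher and 0 lower (median log2 ratio 0.51), and with 31 cells 6 of 18 (median 0.77). Ctsd, cathepsin D, was at 284 and 1167 CPM, a log2 ratio of 2.04 (1.65 to 2.45), Ctsb, cathepsin B, at 1023 and 2598, a ratio of 1.35 (1.13 to 1.57), and Lgmn, legumain, at 275 and 904, a ratio of 1.72 (1.31 to 2.14). Cd63, a membrane protein of late endosomes, had 9 UMIs in ND and 143 in HFD, 97 of them in the deep cell. The other 13 were within 2-fold, with Psap (prosaposin) at a log2 ratio of 0.09, and 0.33 with 31 cells, and Npc2, a cholesterol carrier of lysosomes, at -0.07 and 0.19. Of 12 genes of cholesterol efflux and lipid loading, 3 were at least 2-fold higher, namely Fabp5, a fatty acid carrier, Pltp, a phospholipid transfer protein, and Abcg1, a cholesterol exporter, and 1 was lower. Fabp5 was at 146 and 1532 CPM, and at 1158 in the 31 cells. Abca1, the exporter that loads apolipoprotein A-I, was at 109 and 208 CPM, a log2 ratio of 0.94 (0.21 to 1.69). Lgals3, galectin 3, was at 1231 and 2427 CPM and passed 2-fold with 31 cells (log2 ratio 1.31, 1.10 to 1.53).

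Gpnmb, Spp1 and Trem2, genes of foam macrophages, were present in part of the cells of the HFD monocyte gate and near absent in ND. Gpnmb, a lysosomal glycoprotein of lipid-laden macrophages, had 1 UMI in ND and 164 in HFD, 80 of them in the deep cell, or 4.17 and 757 CPM. Spp1, osteopontin, had 3 and 163 UMIs, or 12.5 and 752 CPM, of which 43 lay in the deep cell, and Trem2, a lipid-sensing receptor, 3 and 45. With 31 cells the log2 ratios were 7.05 (4.53 to 12.37) for Gpnmb, 6.00 (4.41 to 8.29) for Spp1 and 3.84 (2.14 to 6.21) for Trem2. Of 9 foam macrophage genes tested, 6 were at least 2-fold higher and 0 lower (median 1.73), and 5 of 7 with 31 cells (median 2.99).

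These genes were carried by few cells. At least 1 UMI of Gpnmb, Spp1 or Trem2 was seen in 6 of 55 ND monocytes (10.9%), none with more than 2, and in 15 of 33 HFD monocytes (45.5%). At least 3 UMIs were seen in 0 of 55 ND monocytes, which allows a share of up to 6.49%, and in 9 of 33 HFD monocytes, or 27.3% (13.3 to 45.5). Of these 9 cells, 2 were of the Ly6c2 type, 0 of the Adgre4 type and 7 of neither type. In cells that should lack these genes, at least 1 UMI was seen in 6.45% of HFD T cells, 16.0% of HFD B cells and 10.6% of HFD Cd209a cells, and at least 3 UMIs in none of them, at median depths of 5428, 6416 and 5376 UMIs. In ND, 2 of 229 T cells and 1 of 562 B cells had at least 3. HFD macrophages had at least 1 UMI in 71.4% and at least 3 in 45.4% of cells, and ND macrophages in 37.6% and 9.50%. After thinning to 1000 UMIs, 0 of 55 ND and 11 of 33 HFD monocytes had a UMI of the 3 genes. The 9 cells were poor in Plac8, with 0 to 4 UMIs in 8 of them and 21 in the other, where the median HFD monocyte had 7. Those 8 cells lay at the edge of the gate, with exactly 2 of the 5 markers, each at 1 to 4 UMIs. Some of them had no UMI of Ptprc.

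**Figure D5:**
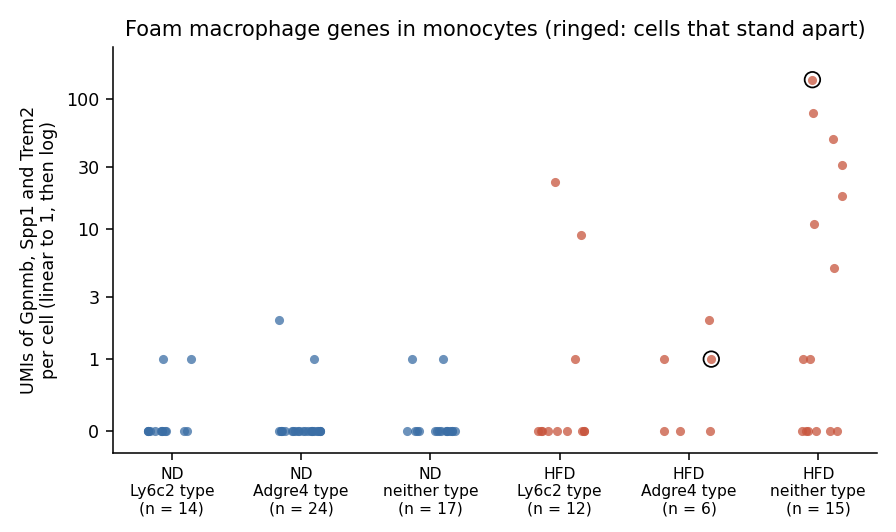
Each point is the number of UMIs of Gpnmb, Spp1 and Trem2 together in 1 monocyte, by library and type, on an axis that is linear to 1 and logarithmic above, and ringed points are the 2 cells that stand apart. No ND cell exceeds 2 UMIs, and the highest HFD cell, at 141, is the deep one.

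HFD against ND, the lysosomal and lipid genes were read again without the 9 cells that carried foam genes and the haemoglobin-rich cell. With 23 HFD cells left, 28 of 1477 genes were at least 2-fold higher and 129 lower. Of the cathepsin and lysosome genes, 1 of 17 was higher (median 0.25), and of the lipid genes 1 of 11 (median 0.33). The 1 lysosomal gene was Lgmn, at a log2 ratio of 1.26 (0.756 to 1.76), and the 1 lipid gene Pltp, at 1.55 (0.739 to 2.38). Ctsb was at 0.28 (-0.03 to 0.59), Ctsd at 0.66 (0.0996 to 1.21), Fabp5 at 0.33 and Lgals3 at 0.25. Of the nonclassical genes, Adgre4 included, 6 of 15 were at least 2-fold lower (median -0.86). The 9 cells were chosen after the data were seen, by UMIs that no ND cell reached, so these values describe the remaining cells and assign the differences to no source.

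Genes of inflammation and migration were mostly within 2-fold, as were most genes tested. Over all 1997 genes, 9.76% were at least 2-fold higher in HFD and 10.9% lower, and with 31 cells 3.45% and 8.65% of 1653. Of 17 inflammatory genes, 4 were at least 2-fold lower in HFD and 0 higher (median -0.55), and with 31 cells 3 of 16 (median -0.14). Tnf was at 267 and 92.3 CPM (log2 ratio -1.24 with 31 cells), Nfkbiz, an inducible NF-kB cofactor, at 814 and 295 (-1.10), and Il6 at 296 and 111 (-0.89, -1.62 to -0.21). Il1b was at 1582 and 1167 CPM and, with 31 cells, at a log2 ratio of 0.08 (-0.15 to 0.32). Of 13 adhesion genes, 5 were at least 2-fold lower (median -0.74, and 3 with 31 cells), among them Itgal, its partner Itgb2 (422 and 194 CPM) and Selplg, the P-selectin ligand (317 and 143 CPM). Of 17 myeloid transcription factors, 3 were lower (Cebpd, Irf5 and Nr4a1) and with 31 cells 1, while Spi1, which encodes PU.1, was at 426 and 240 CPM, a log2 ratio of -0.41 (-0.94 to 0.09) with 31 cells. None of 6 chemokine receptors and none of 5 S100 genes passed 2-fold in either direction.

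The chemokines went both ways. Of 10 tested, Ccl5 and Cxcl16 were at least 2-fold higher in HFD and Ccl6 and Ccl9 lower. All 114 HFD UMIs of Ccl5, a chemokine made by T cells too, lay in 1 cell, and 11 of 12 ND UMIs in another. Cxcl16, a chemokine and scavenger of oxidised lipid, had 7 UMIs in 4 ND and 27 in 12 HFD monocytes. Ccl6 and Ccl9, chemokines of myeloid cells, were at 1110 and 512 CPM and at 563 and 258 CPM, with log2 ratios of -0.80 and -0.70 in the 31 cells. Ccl2, the ligand of Ccr2, was at 179.5 and 332 CPM, but 45 of its 72 HFD UMIs lay in the deep cell, and with 31 cells it was at 179.8 CPM. Of the 4 chemokines past 2-fold, then, Cxcl16 alone was higher in more than 1 HFD cell and by over 2-fold with 31 cells.

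Genes of host defence went both ways. None of 6 MHC class II genes was at least 2-fold apart, with Cd74 at 6966 and 4227 CPM and a log2 ratio of -0.19 (-0.31 to -0.07) with 31 cells, and H2-Eb1 at 2479 and 1777 CPM and 0.05 (-0.14 to 0.24). Of 9 antimicrobial genes, 4 were at least 2-fold lower, and with 31 cells 1 of 9, Pglyrp1. Cybb, the catalytic subunit of the phagocyte oxidase, was at 1373 and 545 CPM, a log2 ratio of -0.89 (-1.22 to -0.58) with 31 cells. Of 12 interferon-induced genes, Ly6a was at least 2-fold higher and Ifitm1 and Ifitm6 lower, and of 7 pattern recognition genes Cd14 and Clec4a3 were lower, but 0 with 31 cells. Fcgr1, the high-affinity IgG receptor CD64, had 11 UMIs in 8 ND and 24 in 13 HFD monocytes, a log2 ratio of 1.27 (0.19 to 2.45). It was the only 1 of 13 Fc receptor and adaptor genes that was higher, and 2 were lower.

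Markers of other cells were counted over the same monocytes. The fibroblast list of 11 genes was at 246 CPM in ND and 7102 in HFD, or 406 with 31 cells, and the smooth muscle list of 9 at 25.0, 3881 and 193 CPM. The erythroid list of 6 was at 138 CPM in ND, 11176.5 in HFD and 752 with 31 cells. The endothelial list of 13 was at 1941, 2473 and 3395 CPM, the macrophage list of 18 at 856, 1730 and 1664, and the dendritic cell list of 17 at 935, 351 and 466. Heat shock genes, which respond to dissociation, were higher in 5 of 11 cases with 33 cells and in 0 of 7 with 31. The part of these markers in the differences between diets was not tested beyond the sums with and without the cells named.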

How the data were processed

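Single-cell RNA sequencing counts of 1 library per diet were used. Per the file headers, the deposited matrices of the authors hold whole UMI counts over 31053 genes from Cell Ranger 3.0.1 (mm10 per the labels), not normalized and used unchanged. Cells were kept with at least 200 genes, 200 UMIs and at most 30% mitochondrial UMIs, and monocytes were chosen by the gate given above. The members and gene lists were chosen with earlier results of these data known. UMIs were summed over cells and divided by their total (CPM), with exact Poisson, Clopper-Pearson and conditional binomial intervals at 95% in scipy 1.17.1 and no test. A gene counted as higher or lower at 2-fold in CPM with at least 30 UMIs over both sums. Named genes were the 10 highest and 10 lowest by the interval bound nearest to 0, among genes in at least 10% of cells of the higher side, besides genes of the lists. Doublets were scored with Scrublet in scanpy 1.11.5. Gene positions came from GENCODE M21 (30934 of 31053 identifiers matched) and promoters from RefSeq. The log2 ratio and its interval, HFD against ND, were tried on simulated Poisson sums. The gate, the types and the thinning were not simulated. Alternatives changed the gate, doublets, depth, scaling, weight of cells and the limit on UMIs. A few members of the gene lists are not reported here by name.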

Additional observations from a re-analysis of the deposited data

How the results depend on the processing

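No paired analysis was possible because each diet had 1 library, and no result was tested. Asking for 3 markers gave monocyte shares of 0.591% in ND and 0.584% in HFD, and thinning to 1000 UMIs gave 0.710% and 0.475%. At a mitochondrial limit of 20%, monocytes were 38 of 3532 kept cells in ND and 4 of 1072 (0.373%) in HFD. The Ly6c2 type was 14.5% of ND and 18.2% of HFD monocytes from 5 UMIs of Ly6c2, and 56.2% of HFD monocytes with 3 markers. Genes at least 2-fold higher in HFD, 195 of 1997 tested in the main setting, numbered 21 of 984 with 3 markers and 18 of 372 after thinning. They numbered 53 of 1641 without the top doublet scores and 57 of 1653 without the pair of cells that stood apart. Without the cells with foam genes as well, 28 of 1477 were higher. Lower genes, 218 of 1997 in the main setting, numbered 84 of 984 with 3 markers and 35 of 372 after thinning. They numbered 143 of 1653 and 129 of 1477 without those cells, and 328 of 1280 at the mitochondrial limit of 20%. From 10 UMIs, with more genes tested, 822 were higher and 663 lower, and from 100, with fewer, 37 and 52. In the Adgre4 type, higher and lower genes numbered 40 and 46 of 657 at the mitochondrial limit of 20% and 10 and 12 of 235 after thinning. They numbered 325 and 452 of 3155 from 10 UMIs and 12 and 16 of 313 from 100. Hba-a2 turned to a log2 ratio of -1.10 at the limit of 20%, which left 4 HFD cells, the deep cell among them. Thinning and higher limits on UMIs also leave fewer genes tested. The log2 ratios of the 20 genes named between diets kept their direction under every other alternative, but many left their main interval. Outside it were 14 of 20 with 3 markers, 10 after thinning and, besides Hba-a2, 11 at the limit of 20%. Without the pair of cells that stood apart 10 were outside it, and 12 without the cells with foam genes as well. With 3 markers the foam genes were too few to read (1 tested), and nonclassical genes, the gate marker Adgre4 included, were lower in 2 of 11.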
